A study of Sus scrofa with 41 samples.

Results

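The 10 genes described here, DUSP1, FOS, JUNB, EGR1, IER2, ZFP36, ATF3, MYC, ZC3H12A and MIDN, are rapid response genes of the pig, taken by Ensembl symbol from the 25880 genes counted in the psoas major muscle of 41 Danbred pigs. They were chosen by symbol with earlier results of these same libraries known, among them a call of DUSP1 with feed conversion ratio in Duroc, so their values against batch, breed, RNA integrity number (RIN) and feed conversion ratio (FCR) are given as descriptions of chosen genes. The pigs were 13 Duroc and 28 Landrace males. All were fed ad libitum, had feed intake and growth recorded from about 28 to about 100 kg and gave muscle just after slaughter. FCR, the feed eaten per weight gained, ran from 1.83 to 2.18 in Duroc and from 1.92 to 2.25 in Landrace, with a low value for an efficient pig. Age at sampling was 131 to 156 days in Duroc and 147 to 166 days in Landrace, and RIN was 6.5 to 8.8 over all pigs. No pig was a treated or untreated control, and each pig gave 1 library.

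Immediate-early genes are transcribed within minutes of a stimulus from factors already present in the cell, and their short-lived mRNAs fall soon after. In muscle they are known to respond to contraction, stretch, injury and stress hormones. The MAP kinases ERK, JNK and p38 start much of this transcription through serum response factor and its partners, and the products include transcription factors, a phosphatase that turns the kinases off again, and proteins that destroy the mRNAs.

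Depth was even, with 22188911 to 25954816 pairs on genes per pig. The labels give 5 batches, which the study describes as differing in day of slaughter. Batch 1 held 1 Duroc, batch 2 held 3 Duroc and 12 Landrace, batch 3 held 2 and 7, batch 4 held 3 and 2, and batch 5 held 4 and 7. Mean RIN was 7.55 in batch 5 against 8.01, 8.04 and 8.20 in batches 2, 3 and 4. Markers of fast muscle fibres summed to between 123654 and 248326 CPM (counts scaled to a common library size) in every pig, whereas 16 leukocyte markers summed to between 20.8 and 156 CPM and 4 erythroid markers to between 6.15 and 314 CPM. In bulk muscle, fewer cells of a type and less RNA per cell cannot be told apart.

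Levels in CPM are after TMM scaling and serve to compare 1 gene between pigs, not genes with each other. DUSP1, a nuclear phosphatase that inactivates MAP kinases, lies on chromosome 16 at 51457924 to 51461095 of Sscrofa11.1. Its level was lowest at 29.7, median 120 and highest at 177 CPM in Duroc, and lowest at 24.6, median 92.5 and highest at 212 CPM in Landrace. The breeds overlapped over nearly the whole range, and the lowest pigs were Duroc 2, the single pig of batch 1, and Landrace 23.

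Among the transcription factors, FOS, a partner of JUN proteins in the AP-1 factor, lies on chromosome 7 at 98449508 to 98451971. FOS ran from 6.21 through a median of 53.0 to 132 CPM in Duroc and from 2.75 through 42.5 to 134 CPM in Landrace. Its lowest pig was again Landrace 23, and the breeds overlapped. EGR1, a zinc finger factor on chromosome 2 at 140440829 to 140445302, ran from 4.88 through 10.3 to 69.1 CPM in Duroc and from 1.98 through 17.6 to 57.9 CPM in Landrace. IER2, a small nuclear protein encoded at 65909638 to 65912491 of the same chromosome, was counted sparsely (19 to 171 pairs per pig) and ran from 1.21 through 2.37 to 5.95 CPM in Duroc and from 1.30 through 2.31 to 4.13 CPM in Landrace. Both genes had overlapping breeds, and the pigs with the most EGR1 and the most IER2 were the Durocs numbered 1 and 5.

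ATF3, a stress-induced factor of the ATF/CREB family on chromosome 9 at 130772259 to 130829678, had the widest spread of the group. It ran from 3.48 through 55.3 to 312 CPM in Duroc and from 4.07 through 26.2 to 415 CPM in Landrace. The SD of its log2 CPM over the 41 pigs was 1.84, larger than that of 99.9% of the 11146 genes tested, whose median SD was 0.35. MYC, a growth-promoting factor on chromosome 4 at 12455141 to 12460360, ran from 3.27 through 8.52 to 21.7 CPM in Duroc and from 2.26 through 5.51 to 20.5 CPM in Landrace. The SDs of the other 8 tested members were 0.55 for IER2 to 1.29 for FOS, which exceeded those of 81.2% to 99.4% of genes, so every tested member differed between pigs more than most genes did.

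ZFP36, or tristetraprolin, binds AU-rich elements and brings mRNAs to decay, and its gene lies on chromosome 6 at 48063732 to 48066235. It ran from 40.1 through 85.4 to 254 CPM in Duroc and from 38.6 through 74.7 to 204 CPM in Landrace. ZC3H12A, or regnase-1, is an RNase that cuts inflammatory mRNAs (chromosome 6, 93541334 to 93551200), and with 27 to 201 pairs per pig it ran from 1.43 through 2.49 to 7.47 CPM in Duroc and from 1.14 through 2.06 to 4.79 CPM in Landrace. MIDN, or midnolin, carries immediate-early proteins to the proteasome without ubiquitin, and its gene lies on chromosome 2 at 77203671 to 77213205. It ran from 13.5 through 24.4 to 47.4 CPM in Duroc and from 9.38 through 21.5 to 56.5 CPM in Landrace, and all 3 genes had overlapping breeds.

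JUNB, an AP-1 factor on chromosome 2 at 66214086 to 66219435, was listed at 0 in the unstranded counts of all 41 pigs. The stranded columns of the same tables held it, with a summed count of at least 93 in every pig and 49.0% of its pairs on the first strand setting. STAR leaves out a pair that falls on 2 annotated genes when strand is ignored, and 106 of 11332 genes with at least 5 stranded counts in every pig (0.935%) were at 0 in the same way. JUNB is therefore given as the sum of its 2 stranded counts, in which its pairs cannot be told from those of a gene on the opposite strand. This sum ran from 5.02 through 20.1 to 52.2 CPM in Duroc and from 4.34 through 10.1 to 40.9 CPM in Landrace. The medians stood about 10 CPM apart, but the ranges overlapped. Most genes of the other lists had nearly the same count in both ways, but some were lower in the unstranded counts, on which list values rest. These included CORO1A (3302 unstranded, 25359 stranded), CSF1R (8823, 22398), EGFL7 (615, 63648) and HSPB1 (400591, 943573), as sums over all pigs.

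**Figure D1:**
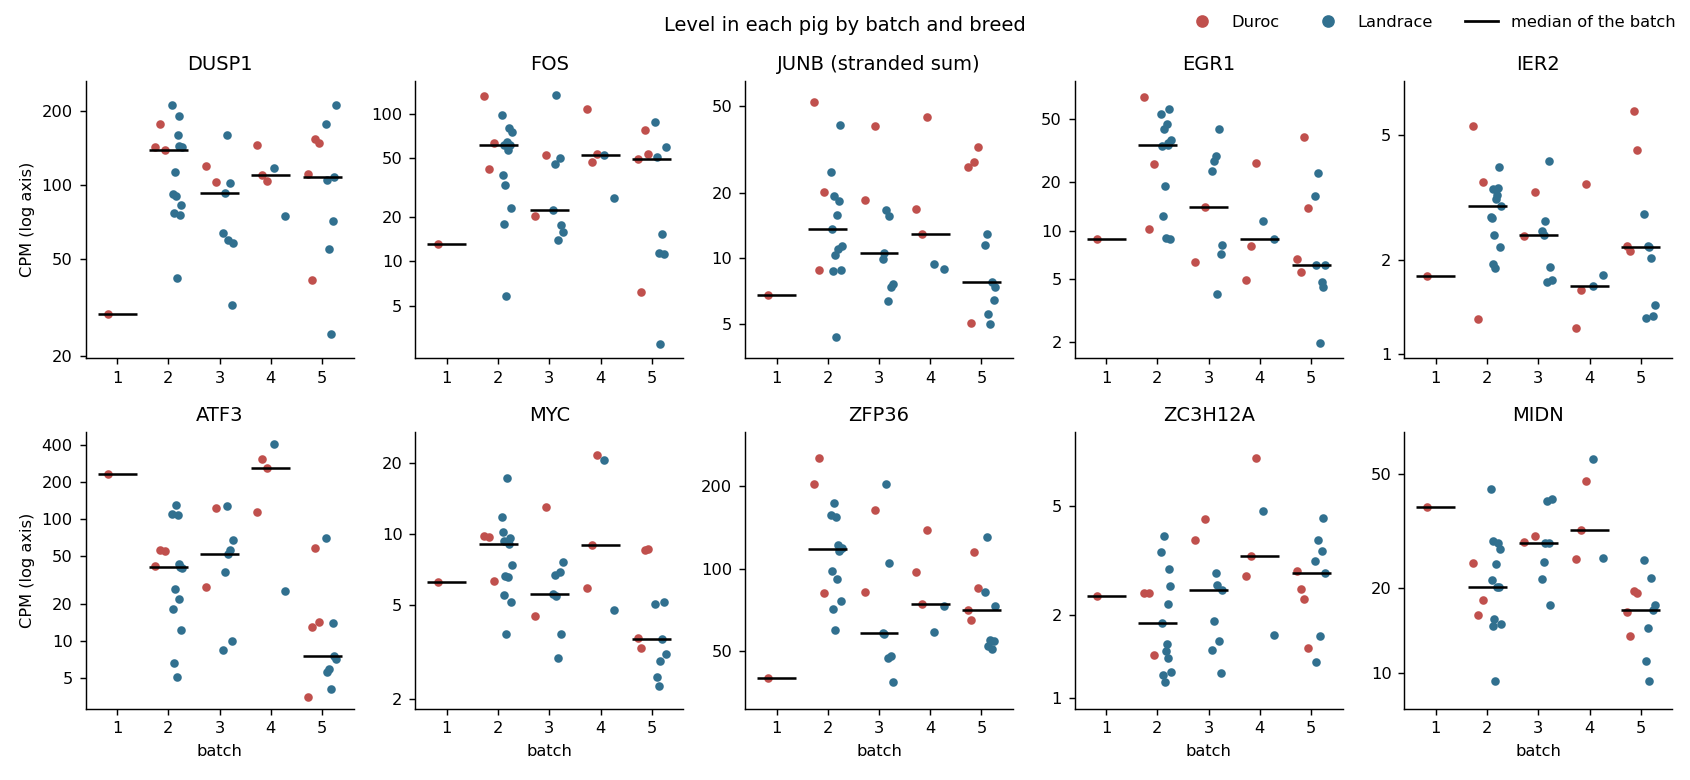
Level of each member in each pig on a log axis in CPM, by batch (1 to 5) with Duroc in red to the left and Landrace in blue to the right, and with a black line at the median of the batch. JUNB is the sum of 2 stranded counts. ATF3 and MIDN sit high in batch 4 and low in batch 5, and EGR1 sits highest in batch 2, where its median was 34.3 CPM.

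High and low pigs were partly the same pigs for several members. Landrace 23 was among the 5 lowest of the 41 pigs for 6 of the 9 members tested, Landrace 21 for 5, and Landrace 14 and Landrace 22 for 4 each. Landrace 1 was among the 5 highest for 5 members, and Duroc 1, Duroc 9 and Landrace 24 for 4 each. Of these 8 pigs, 3 of the 4 low ones came from batch 5. Their RIN was 7.1, 7.4, 8.2 and 7.1 in the order named for the low pigs, and 6.5, 8.2, 8.8 and 7.6 for the high pigs.

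The first comparison asked how the members differed between batches, in a model of FCR, RIN, age, breed and batch fitted to all 41 pigs with edgeR. JUNB could not enter, and of the 9 members tested 6 had a false discovery rate (FDR) under 0.1 for batch, beside 24.1% of all genes. The 6 were MIDN (FDR 0.00124), ATF3 (FDR 0.0159), EGR1 (FDR 0.0381), ZC3H12A (FDR 0.0640), IER2 (FDR 0.0845) and MYC (FDR 0.0875). ZFP36 (FDR 0.131), DUSP1 (FDR 0.272) and FOS (FDR 0.620) did not pass. Fewer members passed without the pigs with RIN below 7, with batch as a number and in limma, and more in DESeq2, as the closing section gives. JUNB by its stranded sum had an FDR of 0.167 for batch by edgeR.

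The members that passed did not differ in the same direction. MIDN was at 25.3 to 56.5 CPM with a median of 31.9 in batch 4 and at 9.41 to 25.05 CPM with a median of 16.7 in batch 5, so that every pig of batch 4 was above every pig of batch 5. In batch 2 it was at 9.38 to 44.3 CPM with a median of 20.1. ATF3 had medians of 40.3, 51.5, 260 and 7.50 CPM in batches 2, 3, 4 and 5, with ranges of 5.08 to 131, 8.39 to 127, 25.5 to 415 and 3.48 to 69.9 CPM. The ATF3 ranges overlapped, and most pigs of batch 5 lay under most pigs of batch 4.

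EGR1 had another order. Its median was 34.3 CPM in batch 2, with a range of 8.90 to 69.1, and 14.1, 8.86 and 6.07 CPM in batches 3, 4 and 5. IER2 had medians of 2.97, 2.40, 1.64 and 2.19 CPM in batches 2 to 5. ZC3H12A ran the other way, at 1.88, 2.47, 3.28 and 2.87 CPM. MYC was at 9.02, 5.53, 8.95 and 3.58 CPM. The ranges of these 4 genes overlapped between batches 2 and 4.

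Against batch 2, the largest batch, no member passed in batch 3, where 0.179% of all genes did. In batch 4, 5 members passed beside 22.9% of genes. ATF3 was higher by 2.14 on the log2 scale (SE 0.63, FDR 0.0229), ZC3H12A by 1.06 (SE 0.29, FDR 0.0140) and MIDN by 0.84 (SE 0.21, FDR 0.00823). EGR1 was lower, with a log2 difference of -1.71 (SE 0.59, FDR 0.0477), and so was IER2 at -0.88 (SE 0.26, FDR 0.0221). In batch 5 EGR1 alone passed, at -2.16 (SE 0.59, FDR 0.0343), beside 11.3% of genes. All these are edgeR values.

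**Figure D2:**
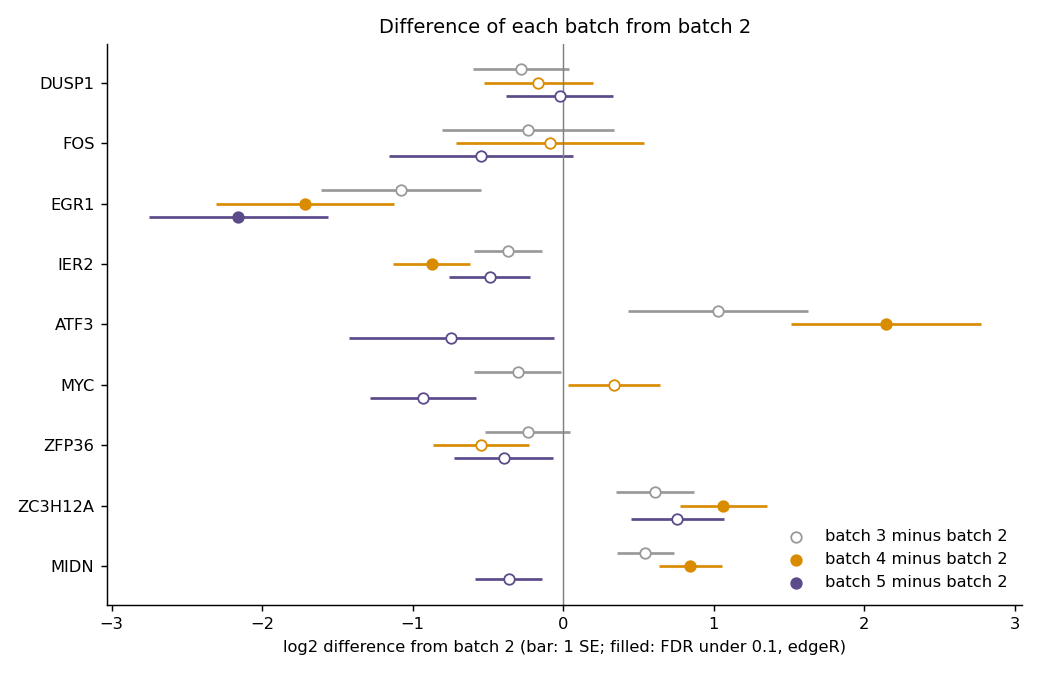
Log2 difference of batches 3, 4 and 5 from batch 2 in the model of all 41 pigs, for the 9 members tested, with bars of 1 SE and filled points for an FDR under 0.1. ATF3, ZC3H12A and MIDN lie to the right and EGR1 and IER2 to the left in batch 4, while DUSP1 and FOS stay within 0.55 of 0 in all 3 batches.

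The batch calls of ATF3 and MIDN held with any 1 pig left out. EGR1 did not pass without Duroc 1 (FDR 0.121) or Landrace 1 (FDR 0.103), nor ZC3H12A without Duroc 3 (FDR 0.125), Duroc 9 (FDR 0.131) or Landrace 24 (FDR 0.119), in edgeR. IER2 and MYC each lost their call in 11 of the 41 fits, with FDR up to 0.209 and 0.205. For IER2 the pigs were Duroc 1, 7 and 12 and Landrace 1, 6, 10, 12, 16, 17, 21 and 24, and for MYC Duroc 9 and Landrace 1, 3, 4, 11, 15, 20, 21, 24, 26 and 28. ZFP36 gained a call without Duroc 3, Landrace 19 or Landrace 21, with an FDR down to 0.0473. Other genes moved with batch as well: summed heat shock genes had medians of 2881, 3214, 4159 and 2435 CPM in batches 2 to 5, and leukocyte markers 89.1, 57.9, 57.8 and 52.8 CPM. Of the leukocyte list 5 of 13 tested genes passed for batch, of the endothelial list 5 of 9 and of the satellite cell list 4 of 6, beside 24.1% of all genes, and the part of these cells in the members' differences was not tested.

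Between breeds, 1 of the 9 members passed beside 33.1% of genes. IER2 was lower in Landrace, with a log2 difference of -0.83 (SE 0.23, edgeR FDR 0.00724), and 17.5% of all genes were lower in Landrace in the same sense. Before the terms for FCR, RIN, age and batch, the 13 Duroc had a mean IER2 level of 2.98 CPM with an SD of 1.54. The 28 Landrace had a mean of 2.41 CPM with an SD of 0.76, and the medians were 2.37 and 2.31 CPM. The difference was negative in every batch with both breeds, with differences of mean log2 CPM of -0.08, -0.26, -0.15 and -0.86 in batches 2, 3, 4 and 5, and it passed in all 41 fits that left out 1 pig. The log2 differences of the other 8 were all negative too, from -0.15 (SE 0.30) for ZC3H12A to -0.96 (SE 0.52, FDR 0.176) for EGR1. Before those terms EGR1 was not lower in Landrace, with means of 22.0 CPM in Landrace and 18.3 CPM in Duroc and medians of 17.6 and 10.3 CPM. Its differences of mean log2 CPM in batches 2 to 5, Landrace minus Duroc, were 0.05, 0.69, -0.01 and -0.82. Those of MIDN were 0.12, -0.10, 0.17 and -0.11 and those of ZC3H12A -0.09, -1.07, -0.51 and 0.29, so neither kept 1 direction over the batches. Without Duroc 5 the difference of EGR1 was -0.60 and that of ATF3 turned from -0.41 to 0.08. MYC, at -0.64 (SE 0.31, FDR 0.122), passed when 1 of 7 pigs was left out, namely Duroc 3, 4 or 12 or Landrace 7, 10, 16 or 24.

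JUNB, by its stranded sum, was lower in Landrace by a log2 difference of -1.71 (SE 0.38, edgeR FDR 0.00114). Endothelial markers were lower in Landrace as well, in 8 of 9 tested genes beside 17.5% of all genes, and their sum ran from 84.5 to 236 CPM in Duroc and from 47.7 to 203 CPM in Landrace. Fast-fibre markers were higher in Landrace in 8 of 9, beside 15.6% of all genes. The part of either cell type in the IER2 and JUNB differences was not tested.

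With RIN none of the 9 members passed, beside 51.8% of all genes. The coefficients ran from -0.21 (SE 0.14) log2 per RIN unit for MIDN to 0.27 (SE 0.18) for IER2, and none of the 9 had an unadjusted p under 0.05. Without Landrace 1, the pig with the lowest RIN, the MIDN coefficient turned to 0.12 and that of IER2 was 0.48. In the same fit the coefficient of ATF3 went from 0.18 to 1.29, that of EGR1 from 0.12 to 0.77 and that of FOS from -0.0016 to 0.52. Leaving out Landrace 1 also gave a call to ATF3 (edgeR FDR 0.0941), and leaving out Landrace 1 or Landrace 28 gave a call to IER2, with an FDR down to 0.0862. With age no member passed, beside 1.76% of genes. ZC3H12A had the lowest age FDR of the members, 0.189, at -0.06 (SE 0.02) log2 per day.

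The series was made to compare pigs across FCR. In the model of both breeds no gene passed for FCR in edgeR (0% of 11146 genes), so no member did. In DESeq2 the same model called 5 of 10765 genes, 2 higher and 3 lower, and no member was among them. At an unadjusted p under 0.05 in edgeR, 968 genes were left, and 4.27% of genes rose at that level with higher FCR, the less efficient side. The members there were IER2, ATF3, MYC, ZC3H12A and MIDN, 5 of 9, all positive. In DESeq2, where 487 of 10765 genes rose at that level, EGR1 was there too (p = 0.0287, DESeq2 FDR 0.489), which made 6 of 9. With library size as the only scaling in edgeR, 2053 genes rose at that level in place of 476. Per 0.1 of FCR the log2 change was 0.29 (SE 0.08) for MIDN, whose edgeR FDR was 0.437 with an unadjusted p of 0.000484. It was 0.36 (SE 0.11) for MYC, 0.73 (SE 0.26) for ATF3, 0.25 (SE 0.11) for ZC3H12A and 0.19 (SE 0.09) for IER2. The remaining 4 were 0.39 (SE 0.22) for EGR1, 0.23 (SE 0.14) for DUSP1, 0.22 (SE 0.25) for FOS and -0.0018 (SE 0.12) for ZFP36, so that 8 of 9 coefficients were positive. JUNB by its stranded sum was at 0.28 (SE 0.15).

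**Figure D3:**
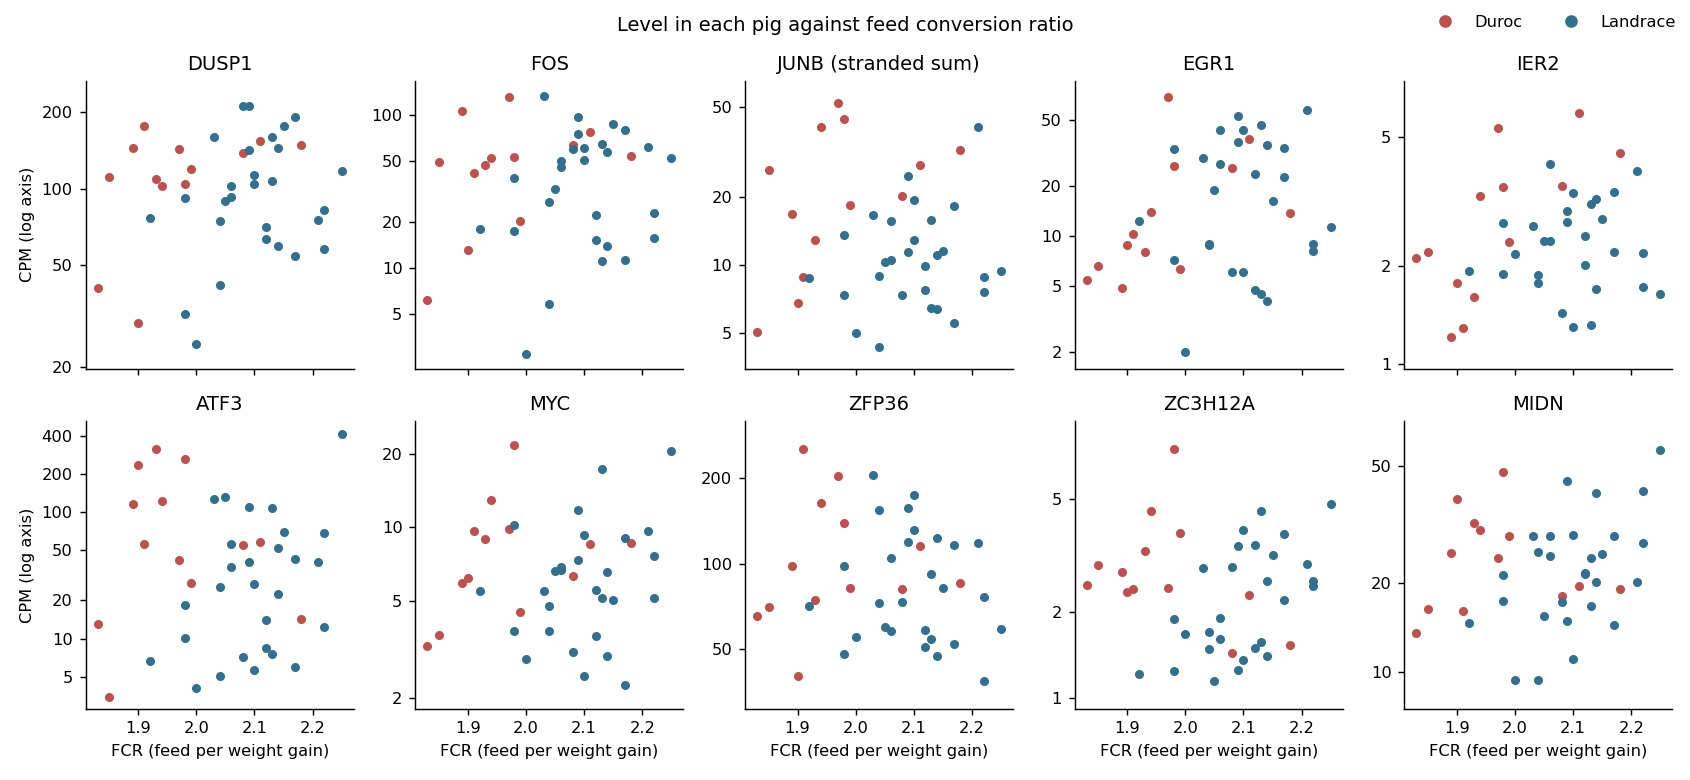
Level of each member in each pig in CPM on a log axis against FCR, with Duroc in red and Landrace in blue and with JUNB as the sum of 2 stranded counts. The breeds overlap in FCR only between 1.92 and 2.18, and the Duroc with the lowest FCR, at 1.83, also has little DUSP1, FOS and EGR1.

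Within Duroc, 1 of 9 members passed in DESeq2, beside 0.0886% of genes (10 of 11292). It was DUSP1, at 0.45 log2 per 0.1 of FCR (SE 0.11, FDR 0.0923), which is 4.54 per unit of FCR. DUSP1 is the member whose earlier call stood behind the choice of these genes, so the value describes the choice and is no independent result. At the low end of FCR, Duroc 11 (FCR 1.83) had 40.9 CPM, Duroc 10 (FCR 1.85) 111 CPM, Duroc 12 (FCR 1.89) 145 CPM and Duroc 2 (FCR 1.90) 29.7 CPM. Duroc 2, alone in batch 1, has a batch term of its own in the model, so its level does not bear on the slope. At the high end, Duroc 5 (FCR 2.11) had 154 CPM and Duroc 6 (FCR 2.18) 149 CPM. Duroc 5, 6, 10 and 11, at both ends of FCR, were the 4 Duroc of batch 5, and the other Duroc ran from 1.89 to 2.08. With batch in the model, slopes compare pigs within batches, so the estimate rests largely on these 4. The model fits FCR, RIN, age and batch to 13 pigs, which leaves few degrees of freedom. The Duroc with the most DUSP1, number 13 at 177 CPM, had an FCR of 1.91, near the low end.

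The call of DUSP1 in Duroc was lost when any 1 of 4 pigs was left out. Without Duroc 11 the value was 1.10 per unit of FCR (DESeq2 FDR 0.984), without Duroc 5 it was 3.81 (FDR 0.225) and without Duroc 6 it was 6.36 (FDR 0.653). Without Duroc 2 the value hardly moved, at 4.52 (FDR 0.103). The call was also lost in edgeR (FDR 0.786) and without a filter on low counts (FDR 0.195), at 4.66 and 4.48 per unit. At an unadjusted p under 0.05, 2.23% of genes rose with FCR in Duroc, DUSP1 alone of the members. The other coefficients per 0.1 of FCR ran from -0.20 (SE 0.18) for ZC3H12A to 0.45 (SE 0.37) for FOS, and without Duroc 11 those of FOS, EGR1, IER2, ZFP36, ATF3, MYC and MIDN changed sign.

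Leukocyte markers had positive coefficients with FCR in Duroc in 13 of 13 tested genes, 4 of them at an unadjusted p under 0.05, beside 2.23% of all genes rising at that level. LCP1, an actin-bundling protein of leukocytes named after its value was seen, passed at 0.49 log2 per 0.1 of FCR (SE 0.12, DESeq2 FDR 0.0832). Endothelial markers were positive in 10 of 10, 2 of them at an unadjusted p under 0.05, and fibroblast markers in 8 of 9. In the 13 Duroc the leukocyte sum ran from 31.8 to 101 CPM, the endothelial sum from 84.5 to 236 CPM and the fibroblast sum from 584 to 4326 CPM, and the part of these cells in the DUSP1 value was not tested.

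Within Landrace no member passed, beside 0.0368% of genes. ZC3H12A came nearest at 0.46 log2 per 0.1 of FCR (SE 0.12, DESeq2 FDR 0.193), followed by MIDN at 0.41 (SE 0.11, FDR 0.203) and ATF3 at 1.08 (SE 0.33, FDR 0.410). With MYC at 0.31 (SE 0.14), these made 4 of 9 members with an unadjusted p under 0.05 and a positive sign, beside 2.54% of genes. DUSP1 was at 0.21 (SE 0.20), under its Duroc estimate. ZC3H12A passed when Landrace 2, 9, 10, 12, 19 or 28 was left out (FDR down to 0.0575), and MIDN when Landrace 1, 9, 10, 14 or 28 was (FDR down to 0.0277). Of the leukocyte markers, 1 of 12 tested had a positive coefficient in Landrace, and 7 fell with FCR at an unadjusted p under 0.05, beside 3.37% of all genes.

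The difference of the FCR coefficients between breeds was tested with an interaction term in edgeR, for which 0% of genes passed. ZC3H12A had the only unadjusted p under 0.05 among the members, with 5.02 log2 per unit of FCR more in Landrace (p = 0.0195, FDR 0.922). DUSP1 differed by -0.91 per unit (p = 0.742, FDR 0.980), so the Duroc call was not shown to be particular to Duroc. Within batches 2, 3 and 5, log2 CPM was fitted by least squares on FCR and breed alone, without RIN or age. Per 0.1 of FCR, MIDN was at 0.25 (SE 0.17), 0.41 (SE 0.15) and 0.20 (SE 0.12) in these batches. DUSP1 was at 0.16 (SE 0.20), -0.06 (SE 0.37) and 0.46 (SE 0.27). ATF3 was at 0.47 (SE 0.44), 0.26 (SE 0.79) and 0.68 (SE 0.39). MYC was at 0.06 (SE 0.18), 0.05 (SE 0.33) and 0.38 (SE 0.12). ZC3H12A was at 0.21 (SE 0.18), 0.24 (SE 0.21) and -0.03 (SE 0.17). IER2 was at 0.28 (SE 0.14), -0.23 (SE 0.21) and 0.33 (SE 0.12). FOS and EGR1 were negative in batch 3 as well, at -0.79 (SE 0.54) and -0.59 (SE 0.63). ZFP36 was negative in batches 2 and 3, at -0.06 (SE 0.18) and -0.55 (SE 0.39). Batch 4 with 5 pigs was not fitted alone.

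**Figure D4:**
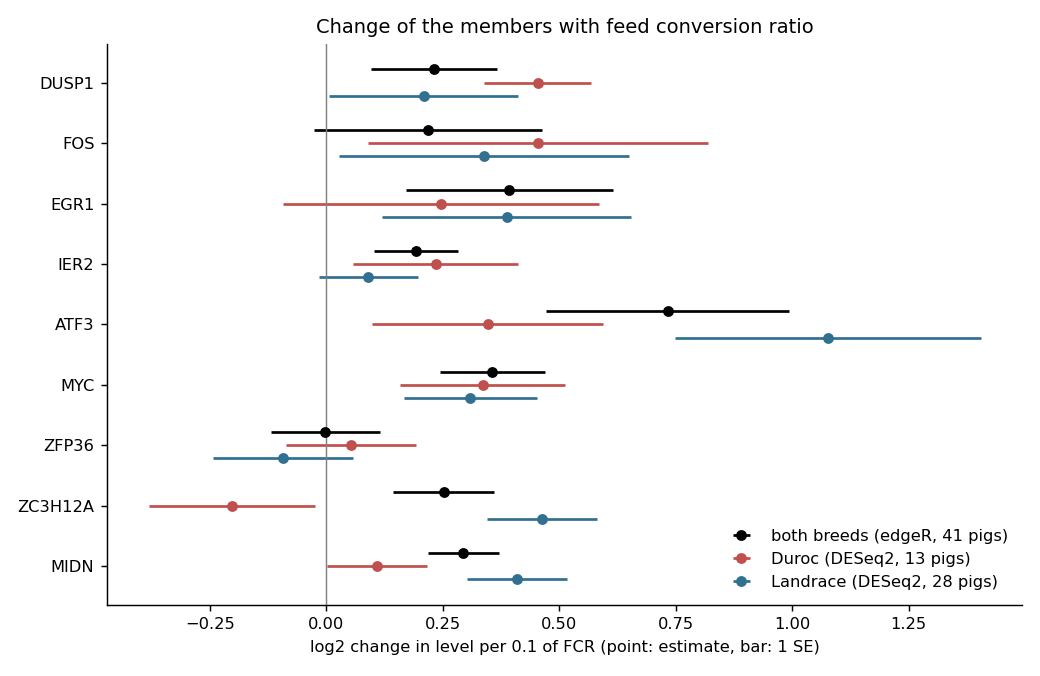
Log2 change per 0.1 of FCR for the 9 members tested, as estimate and 1 SE, in the model of both breeds (black) and within Duroc (red) and Landrace (blue). DUSP1 and FOS in Duroc both stand at 0.45, with a wider bar for FOS, and ATF3 in Landrace at 1.08. ZC3H12A and ZFP36 lie on opposite sides of 0 in the breeds.

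The members varied together over pigs, in unequal degree. Over the 36 pairs of the 9 tested members, Pearson's r of log2 CPM across the 41 pigs ran from -0.07 to 0.85 with a median of 0.39, and 33 pairs were positive. All pairs come from the same libraries, so shared depth and RNA quality can enter them, and r is given as a description without a p. After the terms of the model were taken out, the median was 0.41 and all 36 pairs were positive. The median was 0.47, 0.50 and 0.47 within batches 2, 3 and 5, and 0.33 and 0.47 within Duroc and Landrace. Positive pairs numbered 36, 31 and 32 in these batches, 27 in Duroc and 32 in Landrace. The lowest r was -0.62 in batch 5, for ZFP36 with ZC3H12A, and -0.20 in Duroc, for DUSP1 with MIDN.

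DUSP1 and FOS were the closest pair, at r = 0.85 and Spearman's rho = 0.83, and at r = 0.82 without the 2 pigs farthest from the median of DUSP1. Their r was 0.83, 0.76 and 0.93 within batches 2, 3 and 5 and 0.81 and 0.86 within Duroc and Landrace. EGR1 and IER2 followed at r = 0.75 (rho = 0.79), then ATF3 and MIDN at r = 0.75 (rho = 0.70) and ATF3 and MYC at r = 0.71 (rho = 0.66). ZC3H12A was closest to MIDN, with r = 0.54 (rho = 0.52), and its r with the other 7 ran from -0.07 for EGR1 to 0.33 for ATF3. The stranded sum of JUNB was positively related to all 9, from r = 0.26 with ZC3H12A to 0.74 with FOS.

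**Figure D5:**
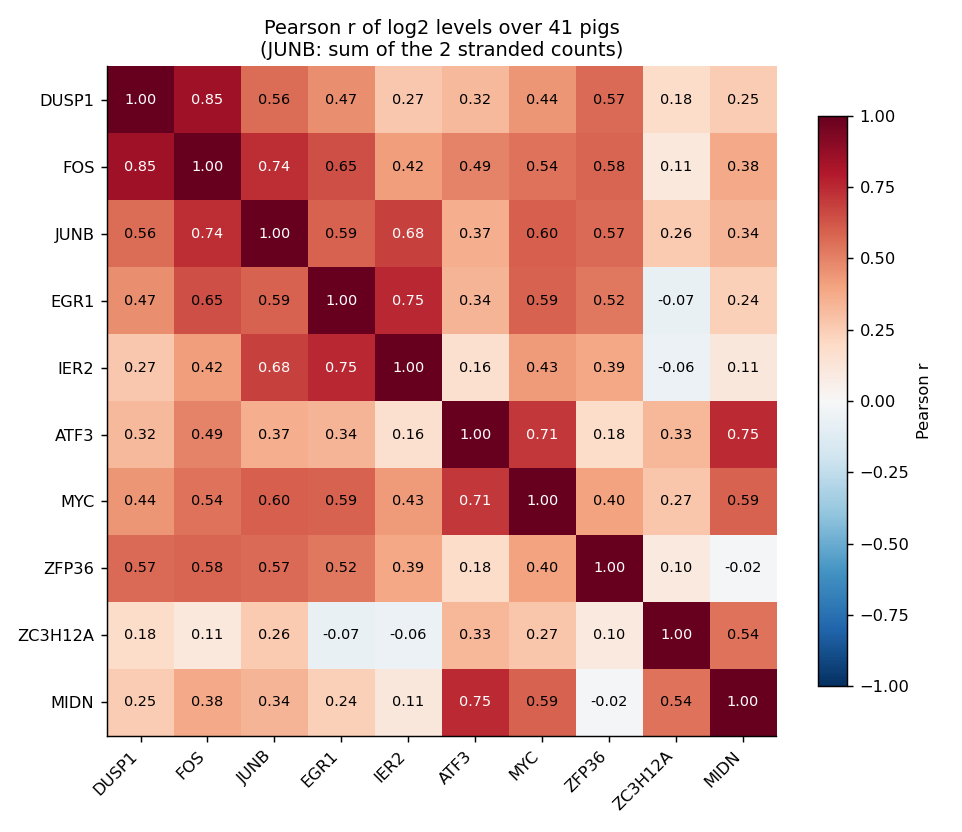
Pearson's r of log2 CPM between each pair of members over 41 pigs, coloured from blue (-1) to red (1), with JUNB as the sum of 2 stranded counts. DUSP1 with FOS at 0.85, EGR1 with IER2 at 0.75 and ATF3 with MIDN at 0.75 stand out, while ZC3H12A is near 0 with EGR1 and IER2.

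Of the other 11145 genes, FOS was the most like DUSP1 by Spearman's rho over the 41 pigs (0.83), and ZFP36 ranked 5 (0.60). On the residuals of the model FOS again ranked 1 (0.82), and ZFP36 ranked 113 (0.45). The closest genes outside the group were HSP70.2, a heat-inducible chaperone (rho 0.74), JUN, the AP-1 partner of FOS (0.64), DNAJB1, a co-chaperone of HSP70 (0.63), IER5 (0.58) and ENSSSCG00000015027 (0.58). Outside the group, the closest on the residuals were JUN (0.76), HSP70.2 (0.76), the chemokine CXCL2 (0.72), DNAJB1 (0.72) and the deubiquitinase OTUD1 (0.70). HSP70.2 ran from 17.1 through 86.6 to 325 CPM and DNAJB1 from 10.4 through 30.9 to 91.8 CPM over all pigs. On log2 CPM, MIDN (rank 1417) and ZC3H12A (rank 1767) stood farthest from DUSP1 among the members, and on the residuals IER2 (rank 1774) and ZC3H12A (rank 4841) did, with MIDN at rank 549.

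Among 33 other immediate-early genes tested, 12 passed for batch (36.4%, beside 24.1% of all genes), 10 for breed (30.3%, beside 33.1%, with 7 higher and 3 lower in Landrace), 12 for RIN (36.4%, beside 51.8%) and none for FCR. CSRNP1 (edgeR FDR 0.000865), MAFF (FDR 0.00144) and HBEGF (FDR 0.00173) had the smallest p for batch. For FCR these were CEBPB, at -0.20 log2 per 0.1 (SE 0.06, FDR 0.529), and IER3, at 0.39 (SE 0.13, FDR 0.529). With FCR, 20 of the 33 coefficients were positive, and 6 genes rose and 5 fell at an unadjusted p under 0.05. Of the members 8 of 9 were positive and 5 rose, and the members were the chosen set.

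Other phosphatases of the DUSP family passed for batch in 4 of 8 tested genes, with DUSP6, which acts on ERK (edgeR FDR 0.0179), DUSP10 (FDR 0.0403) and DUSP8 (FDR 0.0619) first. None passed for FCR, where DUSP16 at 0.12 log2 per 0.1 (SE 0.07) and DUSP8 at 0.10 (SE 0.08) had the smallest p. In the MAP kinase and serum response factor pathway, 7 of 33 genes passed for batch (21.2%, under the 24.1% of all genes), with the smallest p for ELK3 (FDR 0.0325), MRTFA (FDR 0.0357) and RPS6KA5 (FDR 0.0796), and none for FCR. The mRNA decay partners of ZFP36 and ZC3H12A passed for batch in 7 of 24 genes (29.2%), with ZFP36L2, a paralogue of ZFP36 (FDR 0.00807), and CNOT7, a deadenylase (FDR 0.0215), first.

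Heat shock genes passed for batch in 8 of 13, with HSF2 (edgeR FDR 0.000201), BAG3 (FDR 0.00227) and HSPB1 (FDR 0.00322) first. DNAJB1 was at 0.26 log2 per 0.1 of FCR (SE 0.12, FDR 0.551). Glucocorticoid response genes passed for batch in 4 of 14 (28.6%, beside 24.1% of all genes), with the smallest p for the clock gene PER1 (FDR 0.00537), ZBTB16 (FDR 0.0328) and SGK1 (FDR 0.0755). DDIT4, an inhibitor of mTORC1 induced by glucocorticoids, was at -0.40 per 0.1 of FCR (SE 0.13, FDR 0.529), on the other side of 0 from MIDN and ATF3. Within Duroc 1 of this list passed, the muscle ubiquitin ligase TRIM63, at -0.35 per 0.1 of FCR (SE 0.07, DESeq2 FDR 0.0150), named after its value was seen.

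For the cell type lists not yet given, fibroblast markers passed for batch in 1 of 9, adipocyte markers in 2 of 6, slow-fibre markers in 0 of 6, fast-fibre markers in 6 of 9 and erythroid markers in 0 of 2, beside 24.1% of all genes. None of the genes of these lists passed for FCR in the model of both breeds. At an unadjusted p under 0.05, 4 of the 9 fast-fibre markers fell with FCR, beside 4.41% of all genes, and all 9 of their coefficients were negative, on the other side of 0 from 8 of the 9 members. The part of fibre content in the members' FCR values was not tested.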

How the data were processed

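Muscle RNA of 41 pigs was sequenced as 100 bp pairs from an unstranded poly(A) library. After trimming (Trimmomatic 0.39) and alignment to the Sscrofa11.1 assembly (STAR 2.7.1a), the authors deposited whole counts per gene of Ensembl 96, without normalization. The unstranded column was used, and pairs assigned to no gene (19.1% to 30.1% per pig) stayed out of library sizes. Of 25880 identifiers 14857 had a symbol, and RefSeq coordinates on Sscrofa11.1 were used for positions.

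The joint model (FCR, RIN, age, breed and batch of 5 levels) was fitted with R 4.3.3 and the quasi-likelihood test of edgeR 4.0.16 with TMM and filterByExpr, and within breeds with the Wald test of DESeq2 1.42.0 on genes with at least 5 counts in every pig. FDR is Benjamini-Hochberg, with a threshold of 0.1. In edgeR and limma it runs over all genes tested. In DESeq2 it runs over those kept by its automatic filter on mean count, also where the filter on low counts was left out. The log2 CPM had a prior count of 1. Alternatives used DESeq2, limma 3.58.1 with voom, other scaling, filters and covariates, stranded counts, and 1 pig left out at a time. The fits were tested on simulated data. Tables and plots used Python 3.11.15, pandas 2.3.3, SciPy 1.17.1 and matplotlib 3.10.9. Nothing in the labels ties pigs to litters, so any relatedness between pigs could not be modelled. The p-values treat pigs as independent and measure the spread between these pigs, and FDR includes counting error.

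The members, the 14 gene lists beside them and the tests were chosen with earlier results of these data known. Named were every member, and in each list beside them the 3 genes with the smallest edgeR p for batch and the 2 for FCR. Lists of cell types, pathway and decay genes are partly given as counts, and heat shock and glucocorticoid genes are only partly named for FCR. Also named were the 5 genes most like DUSP1 by Spearman's rho before and after removing the model terms. Since the members were chosen so, correlations are given without the planned p-values. No sequences of these genes were used here.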

Additional observations from a re-analysis of the deposited data

Results flagged for a closer look

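In groups of 4 to 10 pigs of 1 breed and 1 batch, the pig farthest from the others was compared with Dixon's 95% limit, in 27 groups of 1 member each, of which chance would pick about 1 in 20 if the values were not skewed. The CPM values of most members are skewed to the right, with the mean over all pigs above the median in each member tested except FOS. On CPM the pig was past the limit in 5 groups, and on log2 CPM, a scale added after the data were seen, in 0 of the 27, with gaps of 0.40 to 0.56 of the range in these 5 against a limit of 0.568. Landrace 19 had 134 CPM of FOS against 14.0 to 50.1 CPM in the other Landrace of batch 3, and 204 CPM of ZFP36 against 38.6 to 105. Landrace 3 had 4.13 CPM of IER2 against 1.70 to 2.65 in the same batch. In batch 5 Landrace 21 had 131 CPM of ZFP36 against 51.1 to 82.3, although it was among the 5 lowest pigs for 5 members, and Landrace 20 had 69.9 CPM of ATF3 against 4.07 to 14.0.

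JUNB was at 0 in the unstranded counts used to test the other members, while the stranded columns held at least 93 pairs in every pig, above the 3 counts that a count of 0 would allow.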

How the results depend on the processing

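Settings were changed 1 at a time, except that another tool brought its own filter and scaling (DESeq2 tested 10765 genes where edgeR tested 11146, and in Duroc edgeR 10509 where DESeq2 tested 11292). Of 621 compared values 561 kept their direction and their side of the threshold, 16 lost and 9 gained a call, and 35 changed sign. Of 9 members, the number called for batch went from 6, beside 2686 of 11146 genes, to 2 with batch as a number, beside 1611. It was 3 without the pigs with RIN below 7, beside 2130 of 11150 genes. In DESeq2 it was 7, beside 3288 of 10765 genes, with ZFP36 gained. With limma it was 5, beside 2598 of 11146 genes, with ZFP36 gained and IER2 and MYC lost. For breed it went from 1, beside 3692 of 11146 genes, to 2 in DESeq2 (3723 of 10765) and with age left out (3109). With the stranded sums it was also 2 (3965 of 11688 genes), where JUNB was tested as well and passed. Library size as the only scaling gave 3 for breed, beside 4130 genes. For RIN it gave 1 instead of 0, beside 7107 genes instead of 5775. In Duroc the call of DUSP1 with FCR was lost (0 members) in edgeR and without a filter. Leaving out 1 pig gave 3 to 7 members for batch, 1 to 2 for breed, 0 to 2 for RIN, 0 to 0 for FCR, age and FCR by breed, 0 to 1 for FCR in Duroc and 0 to 2 for FCR in Landrace.

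Of the values that changed sign, ZFP36 with FCR, -0.02 per unit, was 0.17 with limma, 0.59 with library size only, 0.056 without a filter, 0.41 with batch as a number, 0.014 without the pig of batch 1 and 0.021 with stranded sums. The RIN coefficients changed sign with library size only, to 0.27 for DUSP1 (from -0.04), 0.30 for FOS (from -0.0016), 0.29 for ZFP36 (from -0.0085), 0.10 for ZC3H12A (from -0.21) and 0.098 for MIDN (from -0.21). Without the pigs with RIN below 7 they were 0.38, 0.29, 0.095, 0.12 and 0.14 in the same order. Without a filter those of DUSP1, FOS and ZFP36 were 0.026, 0.060 and 0.054, and with stranded sums 0.031, 0.068 and 0.033. For FOS and ZFP36 they were 0.018 and 0.0098 in DESeq2, 0.15 and 0.0012 with limma, 0.0086 and 0.0019 with RLE scaling, and 0.032 and 0.025 without the pig of batch 1. With batch as a number they were 0.029 for FOS and 0.068 for MIDN. FCR by breed of DUSP1, -0.91, was 0.34 without the pigs with RIN below 7, that of MYC, -1.06, was 0.40 with batch as a number, and ZFP36 in Duroc, 0.53, was -0.36 with age left out. The causes of these changes were not tested.

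Library size as the only scaling moved the median of all genes from 0.03 to 0.61 per unit of FCR, from -0.01 to 0.30 per RIN unit and from -0.00 to -0.18 between breeds, so the members' values move with it, and the breed calls over all genes went from 1737 higher and 1955 lower to 534 and 3596. Over all genes the 10 calls with FCR in Duroc became 0 in edgeR, 3 without a filter and 22 with age left out, and the 4 in Landrace became 0, 1 and 1. Those for batch went from 2686 to 1773 with age left out and 1611 with batch as a number. Those for age went from 196 to 545 in DESeq2, 45 with library size only, 99 without a filter and 814 with batch as a number. Stranded sums within breeds and the JUNB sum were added after the data were seen. No paired analysis was possible because the replicate numbers only name pigs and each pig has 1 breed. IER2 and ZC3H12A, with as few as 19 and 27 pairs per pig, carry the largest counting error.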
